A study of Mus musculus with 10 samples.

Results

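Established germline stem (GS) cells, a long-term culture of mouse spermatogonial stem cells, were compared with the freshly selected testis cells from which such cultures begin. The members are the 15010 genes, of 21969 in the expression matrix, that stood at 1 or more FPKM (fragments mapped per kilobase of transcript, scaled to the size of the library) in at least 2 of 4 libraries, 2 of GS cells and 2 of week 0. The study profiled DBA/2 mouse cells by stranded poly(A) RNA sequencing in 10 libraries, 2 in each of 5 groups. Week 0 cells are adult DBA/2 testis cells taken with anti-CD9 magnetic beads and not cultured. Weeks 1, 2 and 3 are cells of that kind kept in culture, and the GS cells are DBA/2 cells of an already established culture, with no passage number or number of lines given. The culture medium was an Iscove's-based medium with 15 ng/ml recombinant rat GDNF, 10 ng/ml human FGF2 and 1% fetal bovine serum. No transgene, drug or mutant allele is given for any group, and the labels do not say whether feeder cells were present, whether animals were pooled, or whether the libraries of a group came from separate animals or cultures. The p-values below therefore measure the spread between libraries, which may be technical.

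Spermatogonial stem cells are the undifferentiated germ cells at the base of the seminiferous tubule that renew themselves and feed spermatogenesis. They depend on GDNF, which Sertoli cells and other somatic cells of the testis make and which signals through the receptor pair GFRA1 and RET, and on FGF2. Their daughters become differentiating spermatogonia, then spermatocytes that carry out meiosis, then haploid spermatids that replace histones by transition proteins and protamines and build an acrosome and a flagellum.

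The label calls week 0 cells spermatogonial stem cells, and the libraries held RNA of many other testis cells. Their most abundant transcripts were those of spermatids and spermatocytes: Prm2, Prm1, Tnp1, Tnp2, Ybx2 and Ldhc led both libraries. Genes of spermatid chromatin summed to 2.84 and 3.09% of all FPKM at week 0 and to 0.0192 and 0.0201% in GS cells, and the 36 genes listed for undifferentiated spermatogonia to 0.0401 and 0.0441% against 0.362 and 0.369%. Leydig cell genes summed to 0.242 and 0.215% and macrophage genes to 0.0699 and 0.0783% at week 0, against 0.0134 and 0.0136% and 0.00731 and 0.00769% in GS cells. These are bulk samples, so fewer cells of a type and less RNA per cell cannot be told apart, here and in every result below. Estimated from the step between low FPKM values, the week 0 libraries held 10.35 and 12.63 M reads and the GS cell libraries 21.05 and 18.8 M. Libraries of a group correlated at 0.988 to 0.994 (Pearson's r over 15010 genes).

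Most genes differed between the groups. Of 15010 genes 12444 passed an adjusted p of 0.05 (82.9%), 5318 of them higher in GS cells (35.4%) and 7126 lower (47.5%). The test was limma on log2(FPKM + 1) with Benjamini-Hochberg adjustment, and all differences below are GS cells minus week 0 on that scale, which understates the change of genes at low FPKM. At least 2-fold differences numbered 3015 higher (20.1%) and 5423 lower (36.1%). The tails were unequal: 1988 genes were lower by 8-fold or more and 134 higher, and 881 were lower by 32-fold or more and 8 higher. The median difference over all genes tested was -0.27, and list medians below are read beside it, as list counts are beside the 35.4% of all genes that were higher and the 47.5% that were lower. FPKM summed to 860429 and 848311 in the week 0 libraries against 624747 and 595219 in those of GS cells, so the zero point depends on scaling: the share of called genes that were higher was 42.7%, and it became 59.2% after quantile normalization, 53.6% with a common sum and 56.3% with median centring, with median differences of 0.39, 0.16 and 0.28. It depends on the filter as well. Genes that pass through their week 0 level alone had to be lower, and genes that pass through GS cells alone had to be higher. Of the 11381 genes at FPKM 1 or more in all 4 libraries 4677 were higher and 4360 lower (51.8% of called genes higher, median 0.07).

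**Figure D1:**
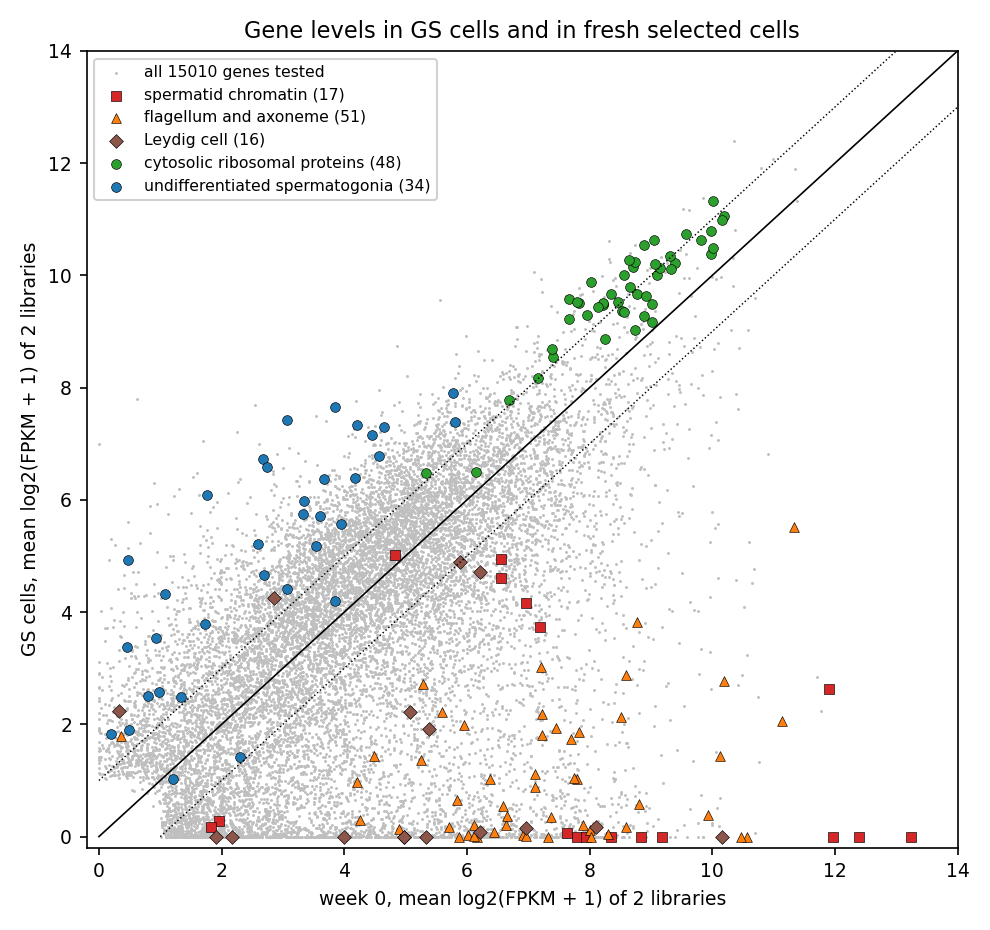
Mean log2(FPKM + 1) of the 2 week 0 libraries (x axis) and the 2 GS cell libraries (y axis) for the 15010 genes tested, with 5 gene lists in colour, the line of equality and dotted lines at 2-fold. Spermatid chromatin, flagellum and Leydig cell genes lie low on the right, 31 of the 34 undifferentiated spermatogonia genes lie above the upper dotted line or on it, and ribosomal protein genes lie as a band above equality.

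Among genes at FPKM 1 or more, 2483 reached that level in both week 0 libraries and in neither GS library, and 497 did the reverse. The 8 largest falls were those of Prm2, Prm1, Tnp2, Oaz3, Smcp, Gapdhs, Insl3 and Gsg1, 7 of them transcripts of spermatids or spermatocytes and Insl3 the Leydig cell peptide hormone. Oaz3 was at 1608 and 1704 FPKM at week 0 and 0.0892 and 0 in GS cells; it encodes a testis antizyme that limits polyamine synthesis. The 8 largest rises were those of Saa3, Mmp3, Epha2, Spp1, Il1rl1, Hoxb8, Zbp1 and Zic1. Saa3 was at 0.546 and 0.540 FPKM at week 0 and 240.4 and 202 in GS cells, and it encodes an acute-phase serum amyloid A protein. Mmp3, a matrix metalloproteinase, was listed at 0 in both week 0 libraries and at 126 and 129 FPKM in GS cells. Epha2 was at 2.11 and 2.34 FPKM at week 0 and 133 and 131 in GS cells (difference 5.37 ± 0.09 SE, adjusted p = 4.73e-10); it is an ephrin receptor tyrosine kinase. These 16 genes were chosen by the size of their difference, so the separation of their libraries is no further support. Of all genes tested 82.9% were called.

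Several of the largest rises were higher still earlier in culture. Saa3 averaged 5732 FPKM at week 1, 476 at week 2 and 154 at week 3, and Spp1 (osteopontin, a secreted matrix phosphoprotein) went from 4.09 and 5.69 FPKM at week 0 to a mean of 8344 at week 1 and then to 195 and 214 in GS cells. Il1rl1, the interleukin-33 receptor, averaged 447 FPKM at week 1 and stood at 49.0 and 45.8 in GS cells. Hoxb8 and Zic1, transcription factor genes, did not share that week 1 height: Hoxb8 was at 0.119 and 0.169 FPKM at week 0 and 41.8 and 35.6 in GS cells, with 28.7, 59.8 and 43.4 at weeks 1 to 3.

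Exact zeros in these files can be failed estimates, so a gene is said here only to be listed at 0. In both GS libraries 616 genes tested were listed at 0, led by Prm2, Prm1, Tnp2, Smcp and Gapdhs, and in both week 0 libraries 25. Genes listed at 0 in both week 0 libraries with the highest GS cell means were Mmp3, Gpr142 (7.39 and 7.84 FPKM), Izumo1r (7.13 and 5.93 FPKM) and 2 rows that were above 0 in 1 GS library and therefore not tested: Gm37419 (0 and 35.5 FPKM) and a second row under the symbol Ddit3 (33.6 and 0). Izumo1r encodes the egg receptor for the sperm protein IZUMO1, and is also known in T cells. At the other end, 2566 genes were not called. Among genes at a mean of 50 FPKM or more, the smallest differences belonged to Tex30, Fkbp5, Fnbp4, Cstf2 and Srsf4. Cstf2 was at 74.3 and 73.4 FPKM at week 0 and 74.4 and 72.6 in GS cells, and it encodes a subunit of the mRNA 3′ end cleavage complex. These 5 were near 0 on the deposited scale and 0.43 to 0.55 under the other 3 scalings.

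**Figure D2:**
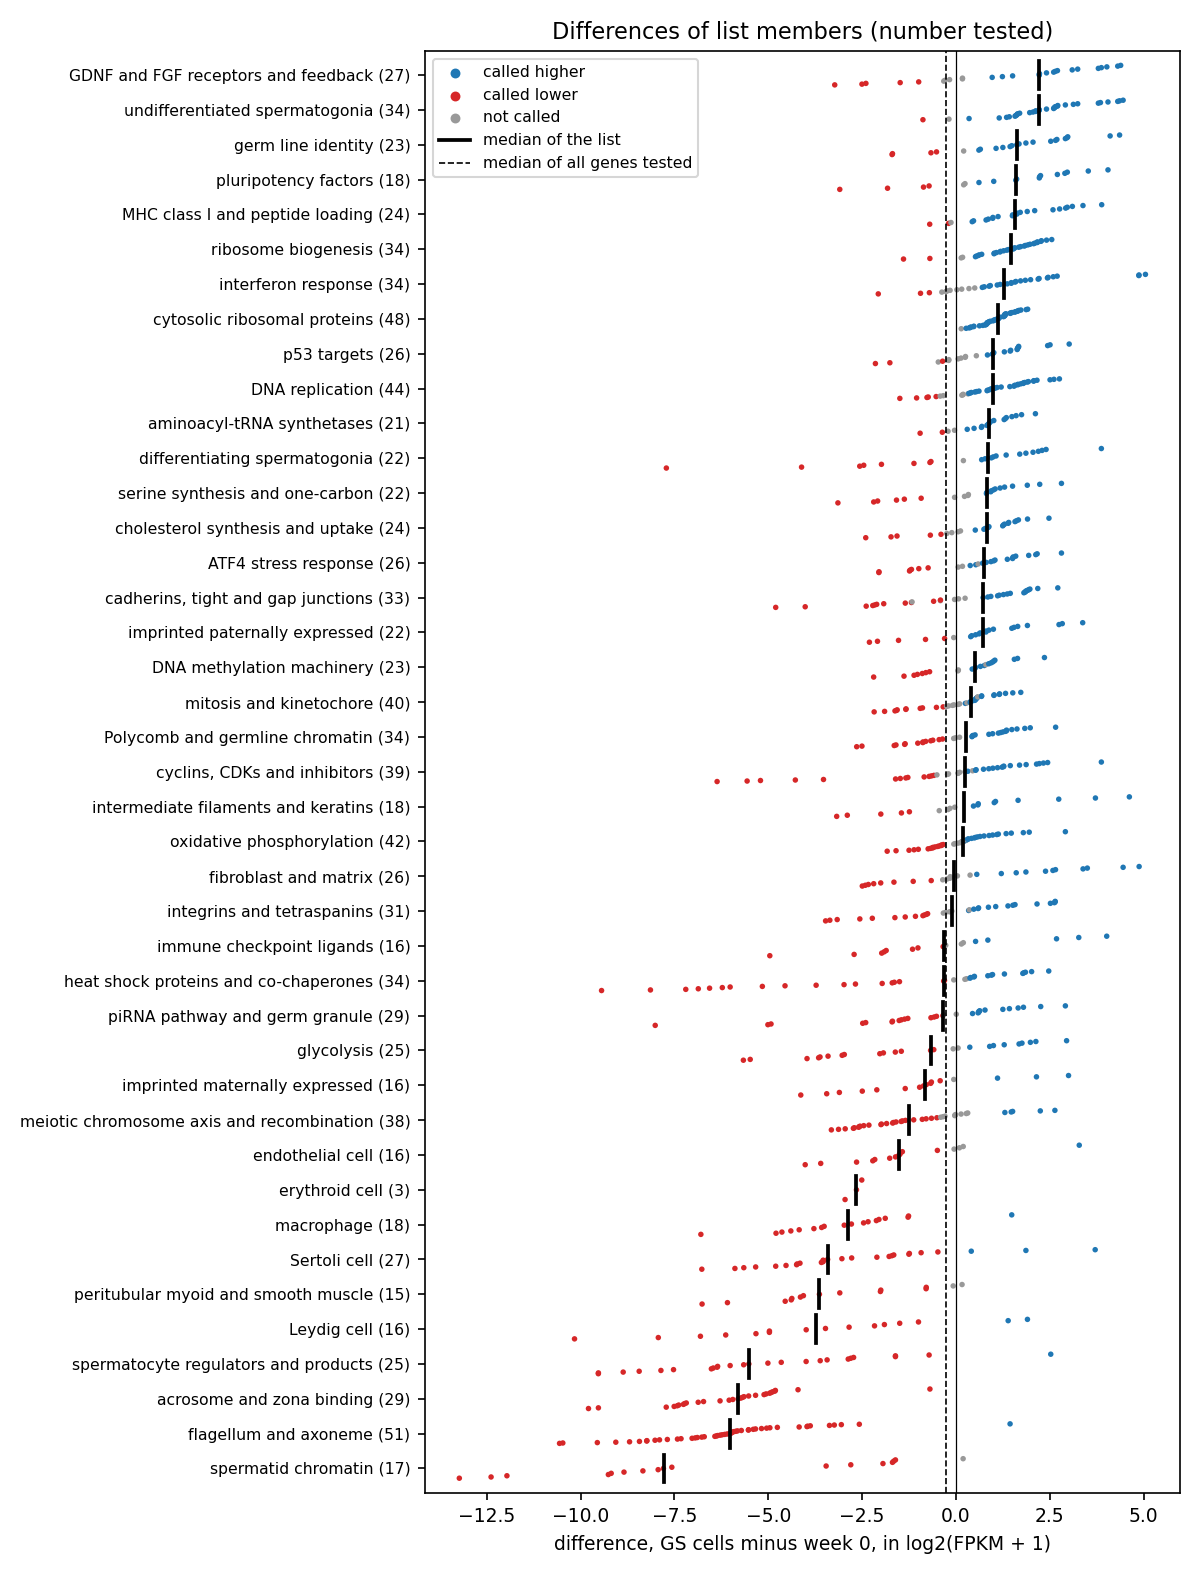
Difference of each tested member (dots, coloured by call) and median (black bar) of 41 gene lists, ordered by median, in log2(FPKM + 1); the dashed line is the median of all genes tested. Receptors and feedback genes of GDNF and FGF and genes of undifferentiated spermatogonia stand at the top with a median of 2.22, and spermatid chromatin at the bottom with -7.79.

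Genes of undifferentiated spermatogonia were higher in GS cells almost without exception. Of 34 members tested 32 were higher, 31 of them by 2-fold or more, and 1 lower, with a median of 2.22. Neurog3 and Pdx1 fell below the filter. Some members, Thy1, Nanos2 and Pax7 among them, passed the filter through GS cells alone and so had to be higher. At FPKM 1 or more in all 4 libraries 24 of 25 were higher and 1 lower (median 2.22), beside 4677 of 11381 genes higher. Gfra1 was at 4.43 and 5.77 FPKM at week 0 and 37.0 and 34.8 in GS cells (chr19:58235604-58455909, GENCODE M21 on GRCm38); it encodes the GDNF co-receptor that marks the stem cell fraction. Ret was at 8.45 and 9.68 FPKM at week 0 and 52.1 and 52.8 in GS cells, and it encodes the signalling subunit of that receptor. Both GS libraries lay far above both week 0 libraries for either gene, where 82.9% of all genes tested were called. Zbtb16 was at 16.2 and 19.01 FPKM at week 0 and 161 and 161 in GS cells; it encodes PLZF, a repressor needed to keep the stem cell pool. Nanos3 was at 7.69 and 7.09 FPKM at week 0 and 178 and 165 in GS cells, a difference of 4.36 ± 0.09 SE (adjusted p = 9.4e-10), and Nanos2 was at 0.355 and 0.407 FPKM at week 0 and 10.3 and 8.62 in GS cells; both are RNA-binding proteins of early germ cells.

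Id4, whose product inhibits helix-loop-helix factors and marks stem cells, differed little: it was at 14.2 and 12.7 FPKM at week 0 and 16.8 and 18.0 in GS cells (difference 0.35 ± 0.12 SE, adjusted p = 0.0204), and the call was lost without week 0 replicate 2 (difference 0.27) or GS replicate 2 (0.30). Thy1 had the largest rise of the list, from 0.389 and 0.397 FPKM to 32.2 and 27.1; it encodes a surface glycoprotein of stem cells and also of fibroblasts, and its mean was 254 at week 1. Tspan8, a tetraspanin, was the 1 member called lower, at 3.92 and 3.92 FPKM at week 0 and 1.87 and 1.49 in GS cells, but it was not called under median centring and its sign turned under quantile normalization (0.20). Cd9 was at 24.9 and 23.5 FPKM at week 0 and 157 and 156 in GS cells, 6.47-fold; CD9 is the tetraspanin the beads selected on, so its week 0 level is not independent of that selection. Foxc2, a forkhead factor of slowly cycling stem cells, and Pax7 were among the members higher as well, Foxc2 at 2.105 and 2.57 FPKM at week 0 and 13.2 and 12.5 in GS cells and Pax7 at 0.190 and 0.0979 FPKM at week 0 and 2.54 and 2.60 in GS cells.

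**Figure D3:**
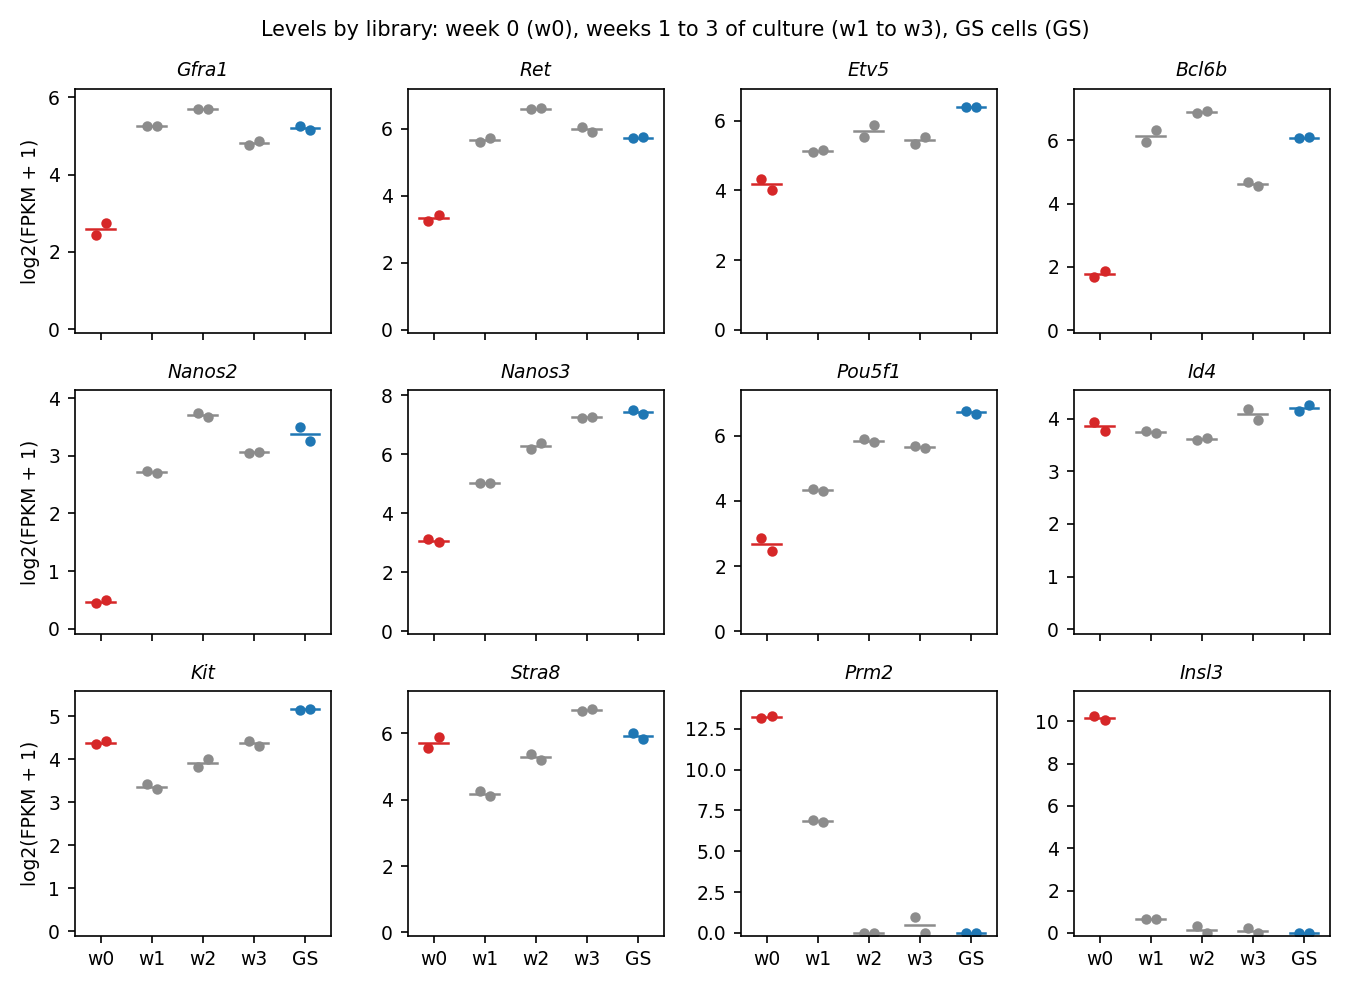
Levels of 12 genes as log2(FPKM + 1) in each of the 10 libraries (dots) with group means (bars), week 0 in red, weeks 1 to 3 in grey and GS cells in blue. Gfra1, Ret, Etv5, Bcl6b, Nanos2, Nanos3 and Pou5f1 are low at week 0 and higher in GS cells. Id4 differs little between those groups, and Prm2 and Insl3 are listed at 0 in both GS libraries.

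Feedback genes and targets of GDNF and FGF signalling were more often higher than lower. Of 27 members tested 17 were higher and 5 lower, with a median of 2.22. At FPKM 1 or more in all 4 libraries 15 of 23 were higher and 3 lower. Dusp5, a nuclear phosphatase that acts on ERK, was at 4.72 and 5.47 FPKM at week 0 and 128 and 125 in GS cells, and Dusp6, its cytoplasmic relative, at 11.98 and 15.1 FPKM at week 0 and 201 and 199 in GS cells. The ERK inhibitors Spry4 (1.96 and 1.88 FPKM at week 0 and 24.2 and 23.8 in GS cells), Spred1 and Spred2 were higher too. Of the transcription factors that GDNF or FGF2 induce, Bcl6b was at 2.197 and 2.64 FPKM at week 0 and 65.9 and 67.4 in GS cells (4.31 ± 0.13 SE, adjusted p = 9.69e-09). Etv4 was at 2.71 and 3.96 FPKM at week 0 and 73.4 and 64.0 in GS cells. Etv5 was at 19.1 and 15.2 FPKM at week 0 and 83.0 and 83.3 in GS cells, and it is needed for self-renewal of these cells. The homeobox gene Lhx1 was at 1.39 and 0.870 FPKM at week 0 and 18.3 and 19.8 in GS cells. Etv1, of the same ETS family, went the other way, from 5.37 and 5.09 FPKM to 0.0126 and 0.192.

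The receptors did not move as 1 block. Gfra2, the co-receptor for neurturin, was at 21.5 and 24.0 FPKM at week 0 and 1.45 and 1.62 in GS cells, the largest fall of the list, and Gfra4 was also lower, while Gfra3 was higher. Fgfr1 was at 26.1 and 42.7 FPKM at week 0 and 79.9 and 80.6 in GS cells, Fgfr4 fell from 2.168 and 2.102 FPKM to 0.486 and 0.671, and Fgfr2 and Fgfr3 were not called. Gdnf itself was below the filter, at 0.834 and 0.979 FPKM at week 0 and 0.464 and 0.367 in GS cells. Mycn, a growth-promoting factor that GDNF raises, was at 4.21 and 5.22 FPKM at week 0 and 25.9 and 25.2 in GS cells, while Myc, at 4.90 and 4.998 FPKM at week 0 and 6.67 and 5.46 in GS cells, was not called here (adjusted p = 0.143) and was called higher under each of the 3 other scalings.

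Genes used to define differentiating spermatogonia split. Of 22 members tested 13 were higher and 8 lower. Kit, the receptor that marks this step, was at 19.4 and 20.3 FPKM at week 0 and 34.5 and 34.9 in GS cells (difference 0.78 ± 0.10 SE, adjusted p = 0.000135). Stra8, the retinoic acid target that precedes meiosis, was at 46.1 and 58.3 FPKM at week 0 and 63.7 and 55.8 in GS cells and was not called (adjusted p = 0.188), although without week 0 replicate 2 (difference 0.37) and under the other scalings it was called higher. Sohlh1 and Sohlh2, helix-loop-helix factors that drive differentiation, were both higher, Sohlh2 at 14.02 and 12.7 FPKM at week 0 and 71.3 and 78.1 in GS cells. Ccnd2, a G1 cyclin, had the largest rise, but its week 0 libraries were apart, at 10.9 and 69.6 FPKM against 461 and 391 in GS cells: the difference of 3.87 became 2.59 without week 0 replicate 1 and 5.16 without week 0 replicate 2. Dmrtb1, a factor at the turn from mitosis to meiosis, had the largest fall, from 582 and 561 FPKM to 1.69 and 1.76.

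Germ line genes common to many stages were mostly higher, 18 of 23, and 4 were lower. At FPKM 1 or more in all 4 libraries 14 of 19 were higher and 4 lower. Dazl, a translation regulator of germ cells, was at 107 and 116 FPKM at week 0 and 419.7 and 518 in GS cells, and Dmrt1, a sex-determination factor kept in spermatogonia, at 50.9 and 59.3 FPKM at week 0 and 207 and 199 in GS cells. Dppa3, known from germ cells and the early embryo, was at 0.153 and 0.323 FPKM at week 0 and 20.8 and 19.8 in GS cells. Ddx4 (VASA), a helicase of germ granules, was lower at 213 and 185 FPKM at week 0 and 120.3 and 129 in GS cells (adjusted p = 9.38e-05), a call that none of the other scalings kept. Mael, of the piRNA pathway, fell from 704 and 619 FPKM to 202 and 202.

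Pluripotency factors gave an uneven picture, with 12 of 18 higher and 4 lower (median 1.61). Sox2 passed the filter through GS cells alone and so had to be higher. At FPKM 1 or more in all 4 libraries 9 of 15 factors were higher and 4 lower (median 1.01). Pou5f1 (OCT4) was at 6.31 and 4.55 FPKM at week 0 and 108 and 101 in GS cells, a difference of 4.05 ± 0.13 SE (adjusted p = 1.25e-08), and Dppa4, on chromosome 16, at 4.15 and 4.56 FPKM at week 0 and 66.1 and 55.6 in GS cells. Sox2 was higher at a low level, 0.104 and 0.0426 FPKM at week 0 and 4.12 and 4.12 in GS cells. Nanog was below the filter in every library of these groups, at 0.0534 and 0.0440 FPKM at week 0 and 0.0472 and 0.0592 in GS cells, as were Prdm14, Tdgf1, Fgf4, Gdf3 and L1td1. The members called lower were Klf2, Klf4, Klf5 and Esrrb, Klf2 from 44.3 and 48.2 FPKM to 4.84 and 4.23.

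The meiotic list had a smaller median fall than the lists of later stages. Of 38 members tested 5 were higher and 24 lower on the deposited scale, with a median of -1.24. Under quantile normalization, a common sum and median centring 10, 10 and 11 were higher and 20, 21 and 21 lower. The medians were then -0.41, -0.82 and -0.69. Sycp3, of the synaptonemal complex, was at 93.7 and 91.5 FPKM at week 0 and 54.3 and 63.1 in GS cells (adjusted p = 0.00242, not called under the other scalings), and Sycp1 and Dmc1 were not called. Meioc and Majin, which act in early meiotic prophase and at telomere attachment, had the largest falls, Meioc from 79.9 and 74.2 FPKM to 6.53 and 7.10. Prdm9, which sets recombination sites, went from 10.1 and 13.1 FPKM to 1.15 and 1.41. The 5 members higher were Rad21l, Rec114, Mei4, Mnd1 and 4930447C04Rik, the first of them, a cohesin subunit of meiosis, at 3.38 and 2.44 FPKM at week 0 and 22.4 and 23.9 in GS cells. Regulators and products of spermatocytes were lower in 24 of 25, with a median of -5.52, and in 17 of 18 at FPKM 1 or more in all 4 libraries. Ybx2, which stores germ cell mRNA, went from 3605 and 3351 FPKM to 2.87 and 4.74, and Hspa2, a chaperone of pachytene cells, from 733 and 673 to 10.4 and 9.39. Taf7l, a testis TFIID subunit on the X chromosome, was the member that rose, at 56.1 and 58.2 FPKM at week 0 and 334 and 334 in GS cells.

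Spermatid genes stood far lower in GS cells. Of 17 chromatin genes 16 were lower (median -7.79), of 29 acrosome genes 29 (median -5.80) and of 51 flagellum genes 50 (median -6.03), where a fall was called for 47.5% of all genes. Many of these genes passed the filter through week 0 alone and so had to be lower. At FPKM 1 or more in all 4 libraries 5 of 6 chromatin genes were lower (median -2.37). So were 4 of 4 acrosome genes (median -4.51) and 19 of 19 flagellum genes (median -5.53), beside 4360 of 11381 genes. Prm2 and Prm1, the protamines, stood at 9287 and 9956 and at 5117 and 5588 FPKM at week 0 and were listed at 0 in both GS libraries. Tnp1 was at 3564 and 4060.3 FPKM at week 0 and 3.82 and 6.98 in GS cells; it encodes a transition protein, and Tnp2, its partner, was at 3946 and 4035 FPKM at week 0 and listed at 0 in GS cells. Rnf8, a ubiquitin ligase with a role in every cell, was the chromatin gene not called, at 24.9 and 29.8 FPKM at week 0 and 30.9 and 31.6 in GS cells. Crisp2, a sperm head and tail protein, was at 1065 and 967 FPKM at week 0 and 0.0851 and 0.214 in GS cells, and Acrbp, which binds proacrosin, kept 25.2 and 24.7 FPKM from 738 and 716. Tex101, a germ cell surface protein counted with the acrosome genes, was lower by less, at 305 and 309.8 FPKM at week 0 and 200.0 and 180.2 in GS cells. Odf2, of the outer dense fibres and also of centrosomes, went from 2606 and 2568 FPKM to 45.6 and 44.0. Rsph4a, a radial spoke protein, was the flagellum gene that rose, at 0.2801 and 0.275 FPKM at week 0 and 2.56 and 2.39 in GS cells.

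Start regions of 3 spermatid genes and 2 replication genes, chosen after their values were seen, are shown because the former fell, the latter rose, and their CG content is unlike. The lines give the 200 bases before the RefSeq start, 5′ to 3′, with CG dinucleotides in capitals (RefSeq, GRCm38.p6). Prm1 lies at chr16:10796824-10797023 on the minus strand, Prm2 at chr16:10792106-10792305 on the minus strand, Smcp at chr3:92589074-92589273 on the minus strand, Mcm5 at chr8:75109309-75109508 on the plus strand and Mcm6 at chr1:128359706-128359905 on the minus strand.
Prm1: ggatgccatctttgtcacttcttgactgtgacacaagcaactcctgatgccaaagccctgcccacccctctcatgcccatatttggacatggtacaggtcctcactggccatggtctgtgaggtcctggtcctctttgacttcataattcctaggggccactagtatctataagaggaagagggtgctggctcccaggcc
Prm2: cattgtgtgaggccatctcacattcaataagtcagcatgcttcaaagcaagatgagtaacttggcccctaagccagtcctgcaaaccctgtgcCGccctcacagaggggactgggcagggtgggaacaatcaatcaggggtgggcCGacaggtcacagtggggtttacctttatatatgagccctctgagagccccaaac
Smcp: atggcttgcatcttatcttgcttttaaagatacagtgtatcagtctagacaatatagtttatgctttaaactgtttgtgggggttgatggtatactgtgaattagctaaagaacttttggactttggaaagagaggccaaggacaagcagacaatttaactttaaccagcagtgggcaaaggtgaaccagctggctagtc
Mcm5: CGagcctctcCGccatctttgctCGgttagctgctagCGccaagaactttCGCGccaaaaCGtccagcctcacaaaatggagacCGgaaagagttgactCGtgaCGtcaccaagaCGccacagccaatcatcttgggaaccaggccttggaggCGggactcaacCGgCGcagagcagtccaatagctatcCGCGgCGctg
Mcm6: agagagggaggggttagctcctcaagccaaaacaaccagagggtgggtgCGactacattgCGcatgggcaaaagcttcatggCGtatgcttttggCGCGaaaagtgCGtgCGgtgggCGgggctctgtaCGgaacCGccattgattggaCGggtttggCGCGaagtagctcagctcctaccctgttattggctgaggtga
Prm1 and Smcp had 0 CG dinucleotides in this stretch and Prm2 had 2, while Mcm5 had 17 and Mcm6 had 13. The letters TTTGGCGC, bound by E2F factors, searched on both strands, stood in 1 place in the Mcm5 stretch and in 2 places in that of Mcm6, and 0.514% of the 32851 windows of 300 bases in the promoter table hold them. TATAAA, also searched on both strands, stood in the Prm2 stretch and in 13.6% of windows. Over all 17 spermatid chromatin genes the observed-to-expected CpG ratio of the 300-base window had a median of 0.31 (0.00 to 0.92), and over all windows of the table it was 0.38. Among lists with more members lower it was 0.37 over 26 of 29 acrosome genes, 0.50 over 41 of 51 flagellum genes and 0.70 over 33 of 38 meiotic genes. Among lists with more members higher it was 0.88 over 35 of 40 mitosis genes, 0.87 over 29 of 34 ribosome biogenesis genes, 0.56 over 21 of 24 MHC class I genes and 0.50 over 29 of 34 interferon response genes, so the lists of either direction overlapped. For all genes tested the comparison is void, since 79.0% of them had a window and 80% were required.

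Markers of Leydig, Sertoli, smooth muscle, macrophage and endothelial cells were mostly lower. Leydig cell genes were lower in 14 of 16, with a median of -3.73. Insl3 was at 1219 and 1075 FPKM at week 0 and listed at 0 in both GS libraries, and Cyp17a1, a steroid hydroxylase, was at 314 and 239 FPKM at week 0 and 0.269 and 0 in GS cells. Hsd11b1, a steroid dehydrogenase that other cells express too, was higher, at 0.167 and 0.343 FPKM at week 0 and 3.80 and 3.58 in GS cells. Sertoli cell genes were lower in 24 of 27: Cst12, a cystatin, was at 125 and 138 FPKM at week 0 and 0 and 0.462 in GS cells. Inha, the inhibin alpha subunit, was at 70.9 and 70.3 FPKM at week 0 and 0.298 and 0.125 in GS cells. Wt1, a regulator of Sertoli cell identity, was lower by less, at 22.5 and 17.7 FPKM at week 0 and 9.75 and 10.3 in GS cells. Trf (transferrin) and Dmrt1, which germ cells also express, and Sox9 were the members higher, Sox9 at 2.60 and 2.94 FPKM at week 0 and 4.20 and 3.81 in GS cells (adjusted p = 0.0183), a call lost without week 0 replicate 1 (difference 0.34) or GS replicate 1 (0.35).

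Smooth muscle genes of the tubule wall fell in 13 of 15, Actg2 from 172 and 178 FPKM to 0.0886 and 1.41 and Myh11 from 87.6 and 101.7 to 0.395 and 0.410. Macrophage genes fell in 17 of 18, and 5 more lay below the filter. Adgre1, which encodes F4/80 of macrophages, was at 5.42 and 8.10 FPKM at week 0 and 0.146 and 0.0742 in GS cells. Aif1, which spermatids are known to express too, went from 346 and 365 FPKM to 1.07 and 3.96 (difference -6.80, and -6.17 or -7.43 without GS replicate 1 or 2). The lysosomal protein gene Cd68 was the macrophage list member that rose, at 7.56 and 9.82 FPKM at week 0 and 26.4 and 25.5 in GS cells. Endothelial genes fell in 12 of 16, beside 47.5% of all genes. Sox17 was at 11.1 and 11.2 FPKM at week 0 and listed at 0 in both GS libraries. Flt1, a VEGF receptor, rose from 2.24 and 1.57 FPKM to 28.8 and 25.6. Many of these markers passed the filter through week 0 alone and so had to be lower. At FPKM 1 or more in all 4 libraries 4 of 5 Leydig cell genes were lower, 7 of 10 Sertoli cell genes, 8 of 10 smooth muscle genes and 6 of 7 macrophage genes, but 2 of 6 endothelial genes (1 higher, median 0.02). Under quantile normalization 5 endothelial genes were higher and 9 lower. Erythroid genes tested were lower in 3 of 3, with 6 more below the filter, Hba-a1 from 6.27 and 5.40 FPKM to 0 and 0.181.

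Fibroblast and matrix genes did not fall as a group. Of 26 members tested 11 were higher and 8 lower, with a median of -0.06 that was 0.82, 0.37 and 0.49 under the other scalings and 0.12, 0.02 and 0.08 without week 0 replicate 1, week 0 replicate 2 and GS replicate 1. Col1a1, the main collagen of connective tissue, was at 41.2 and 44.8 FPKM at week 0 and 71.4 and 56.5 in GS cells (adjusted p = 0.0367), a call lost without filtering (difference 0.56) and on leaving out week 0 replicate 1 (0.50), week 0 replicate 2 (0.61), either week 1 library (0.56) or GS replicate 1 (0.39). Col1a2 and Col6a1 were lower, Col1a2 at 95.2 and 101 FPKM at week 0 and 45.2 and 43.0 in GS cells, and Col3a1 was not called. S100a4, a calcium-binding protein of motile fibroblasts, was at 0.325 and 3.61 FPKM at week 0 and 81.0 and 63.7 in GS cells, a difference of 4.88 that was 3.98 and 5.78 without week 0 replicate 1 and 2. Lox, which cross-links collagen, was at 2.48 and 2.66 FPKM at week 0 and 38.4 and 40.3 in GS cells. Fn1 (fibronectin) was at 17.0 and 23.6 FPKM at week 0 and 117 and 101.9 in GS cells, while Dcn (decorin) fell from 154 and 190.0 FPKM to 29.6 and 29.5. The 26 genes summed to 0.159 and 0.189% of all FPKM at week 0 and 0.185 and 0.188% in GS cells, so the groups overlapped, and to 1.88 and 1.89% at week 1. The GS libraries held transcripts of collagens and other matrix genes beside those of germ cells, and the part of that list in the rises of Saa3, Mmp3, Spp1 and Thy1 was not tested.

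DNA replication genes were higher in GS cells. Of 44 members tested 33 were higher and 5 lower, with a median of 0.98. Each of the 6 MCM helicase genes rose, Mcm2 at 58.2 and 57.7 FPKM at week 0 and 227 and 268 in GS cells and Mcm6 at 31.7 and 33.5 FPKM at week 0 and 105 and 104 in GS cells. Mcm4 had the largest rise of the list, from 13.2 and 19.2 FPKM to 111.1 and 116, and lies on chromosome 16, as does Chaf1b, a histone chaperone subunit, at 12.1 and 16.2 FPKM at week 0 and 88.0 and 80.8 in GS cells. Tk1, thymidine kinase, was at 11.3 and 8.66 FPKM at week 0 and 66.2 and 65.1 in GS cells, and Rfc2, a clamp loader subunit, fell from 272 and 294 FPKM to 106 and 93.9.

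Mitosis genes were nearer to balance on the deposited scale: 21 of 40 were higher and 11 lower (median 0.39). Under each of the other scalings 28 were higher and 9 lower. Cenpa, the centromeric histone, was at 38.2 and 54.3 FPKM at week 0 and 167 and 141 in GS cells and Mad2l1, of the spindle checkpoint, at 24.8 and 20.2 FPKM at week 0 and 64.8 and 66.8 in GS cells. Plk1 and Aurka, mitotic kinases, were lower, Plk1 at 81.8 and 71.6 FPKM at week 0 and 25.2 and 23.1 in GS cells, and Cdk1 was not called, at 80.2 and 79.6 FPKM at week 0 and 74.3 and 64.9 in GS cells. Among cyclins, CDKs and their inhibitors 18 of 39 were higher and 13 lower (median 0.24). The mitotic and meiotic forms parted: Ccna2 was at 22.04 and 20.7 FPKM at week 0 and 51.2 and 55.0 in GS cells and Ccna1, the meiotic cyclin A, fell from 205 and 203 FPKM to 2.06 and 1.02. Among inhibitors Cdkn1a (p21) was higher, at 8.85 and 8.72 FPKM at week 0 and 54.4 and 50.1 in GS cells, and so was Cdkn2a, at 21.9 and 24.6 FPKM at week 0 and 59.3 and 52.7 in GS cells. Cdkn2c was lower, at 77.6 and 76.1 FPKM at week 0 and 0.536 and 0.764 in GS cells, and Cdkn2d also, at 89.7 and 98.8 FPKM at week 0 and 4.005 and 3.80 in GS cells.

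Genes of protein synthesis rose together. Of 48 cytosolic ribosomal protein genes 47 were higher and 0 lower (median 1.11), and Rpl13, at 498 and 538 FPKM at week 0 and 637 and 512 in GS cells, was not called. Rpl14 was at 186 and 219.9 FPKM at week 0 and 791 and 735 in GS cells, and Rps3 was at 244 and 271 FPKM at week 0 and 1012 and 882 in GS cells. These 48 genes made up 2.51 and 2.75% of all FPKM at week 0 and 7.90 and 7.23% in GS cells. Ribosome biogenesis genes were higher in 30 of 34 (median 1.46): Polr1b, a subunit of RNA polymerase I, was at 10.1 and 10.55 FPKM at week 0 and 66.2 and 64.5 in GS cells, and Tsr1 at 15.9 and 18.0 FPKM at week 0 and 95.6 and 93.0 in GS cells. Aminoacyl-tRNA synthetases were higher in 17 of 21, led by Rars (26.7 and 26.2 FPKM at week 0 and 119 and 117 in GS cells) and Tars, while Fars2, the mitochondrial enzyme for phenylalanine, fell from 118 and 112 FPKM to 61.9 and 55.6.

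Genes of serine and of cholesterol synthesis were more often higher than lower. In the serine and one-carbon list 12 of 22 were higher and 6 lower (median 0.82). Phgdh, which opens serine synthesis, was at 21.6 and 21.9 FPKM at week 0 and 170.2 and 148 in GS cells, and Shmt2, which passes its carbon to folate in mitochondria, at 34.3 and 27.2 FPKM at week 0 and 148 and 146 in GS cells. Aldh1l1, which removes formyl groups from folate, fell from 16.9 and 18.8 FPKM to 0.958 and 1.32. Of targets of the stress factor ATF4 16 of 26 were higher and 7 lower (median 0.76), with Eif4ebp1, an inhibitor of cap-dependent translation, at 25.5 and 23.2 FPKM at week 0 and 113 and 112 in GS cells and Fgf21 lower, at 3.09 and 4.11 FPKM at week 0 and 0.0633 and 0.142 in GS cells. Of cholesterol genes 15 of 24 were higher and 5 lower (median 0.82). Hmgcs1, an early enzyme, was at 38.3 and 34.9 FPKM at week 0 and 133 and 147 in GS cells. Insig1, the sterol sensor's partner, was at 20.2 and 23.1 FPKM at week 0 and 122 and 128 in GS cells. Ebp, a sterol isomerase, fell from 14.1 and 16.9 FPKM to 1.68 and 2.60.

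Glycolysis genes were lower in 14 of 25 and higher in 9, near the shares of all genes (47.5% and 35.4%), and the median of -0.67 was -0.18, -0.19 and -0.13 under the other scalings. Slc2a3, a glucose transporter, went from 870.5 and 799 FPKM to 18.0 and 13.3 and Hk1, hexokinase 1, from 1128 and 1059 to 23.3 and 23.7, while their relatives rose: Slc2a1 was at 8.79 and 8.39 FPKM at week 0 and 40.7 and 33.5 in GS cells and Hk2 at 10.1 and 12.1 FPKM at week 0 and 51.9 and 51.4 in GS cells. Pdk1, which restrains pyruvate entry into mitochondria, rose from 16.1 and 18.0 FPKM to 137 and 139. Respiratory chain genes were close to balance on the deposited scale alone: 19 of 42 were higher and 15 lower (median 0.18). Under quantile normalization, a common sum and median centring 27 were higher each time and 5, 7 and 5 lower (medians 0.67, 0.67 and 0.73). The 11 mitochondrially encoded genes tested were all higher, with a median of 1.55.

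Spermatogenic cells carry testis forms of many enzymes and complexes whose general forms serve other cells, and 52 such pairs were read side by side. In the 50 pairs with both members tested, the testis form was lower in 44 and higher in 4, and the general form higher in 32 and lower in 12. Of all genes tested 35.4% were higher and 47.5% lower. Rad21 is counted as the general form both for Rad21l and for Rec8. The exchange, testis form lower and general form higher, was found in 27 pairs on the deposited scale and in 29 to 31 under the other scalings. The testis form made up over 50% of the pair's FPKM in 38 pairs at week 0 and in 8 in GS cells, with medians of 75.5 and 2.26%.

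In glycolysis Gapdhs, of the sperm flagellum, stood at 1386 and 1458 FPKM at week 0 and was listed at 0 in GS cells, while Gapdh was at 52.0 and 68.6 FPKM at week 0 and 227 and 184 in GS cells. Pgam2 fell from 1091 and 1074 FPKM to 0.297 and 0.582 and Pgam1 rose from 13.2 and 15.4 to 48.6 and 47.1. Pgk2 fell from 412 and 392 FPKM to 0.0999 and 0.224, while Pgk1, on the X chromosome, at 9.99 and 11.5 FPKM at week 0 and 11.3 and 11.1 in GS cells, was not called here and was called higher under the other scalings. Ldhc and Ldha fell together, Ldha at 698 and 689 FPKM at week 0 and 54.1 and 53.9 in GS cells. In the respiratory chain Cox6b2 fell and Cox6b1 rose (215 and 254 FPKM at week 0 and 842 and 788 in GS cells), and Cox8c fell and Cox8a rose. Cyct, the testis cytochrome c, fell less, from 112 and 84.0 FPKM to 51.3 and 47.3, and Cycs rose from 16.3 and 19.3 to 46.3 and 46.5, so that Cyct made up 51.5% of the pair in GS cells.

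Some testis forms were not lower, or remained the larger part of their pair. Slc25a31, an ADP/ATP carrier, was at 49.2 and 46.1 FPKM at week 0 and 153 and 147 in GS cells and Taf7l, Rad21l and Nxf2, an mRNA export factor, also rose. Among the pairs whose testis form rose, that of Nxf2 was the only 1 where the general form was called lower. Nxf1 was at 217 and 257 FPKM at week 0 and 192 and 165 in GS cells (adjusted p = 0.0156). That call was lost without week 0 replicate 2 (-0.28) or GS replicate 2 (-0.29), and the sign turned under each of the other scalings (0.08 to 0.24). Rpl39l, Stag3 and Tuba3a were called lower and still made up 76.1, 91.3 and 95.4% of their pairs in GS cells. Rpl39l, of the ribosome, fell from 441 and 392 FPKM to 286 and 276, a call lost under the other scalings. Stag3, of meiotic cohesin, fell from 319 and 339 FPKM to 199 and 179.9, a call lost under quantile normalization. Tuba3a, an alpha tubulin, fell from 1100.5 and 1081 FPKM to 459 and 422. Paralogs as alike as Rpl10l and Rpl10 may share reads, and the sources used here do not say how such reads were divided. General forms on the X chromosome made up 14 of the 50, and genes of that chromosome as a whole stood lower at week 0; its part in these pairs was not tested.

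**Figure D4:**
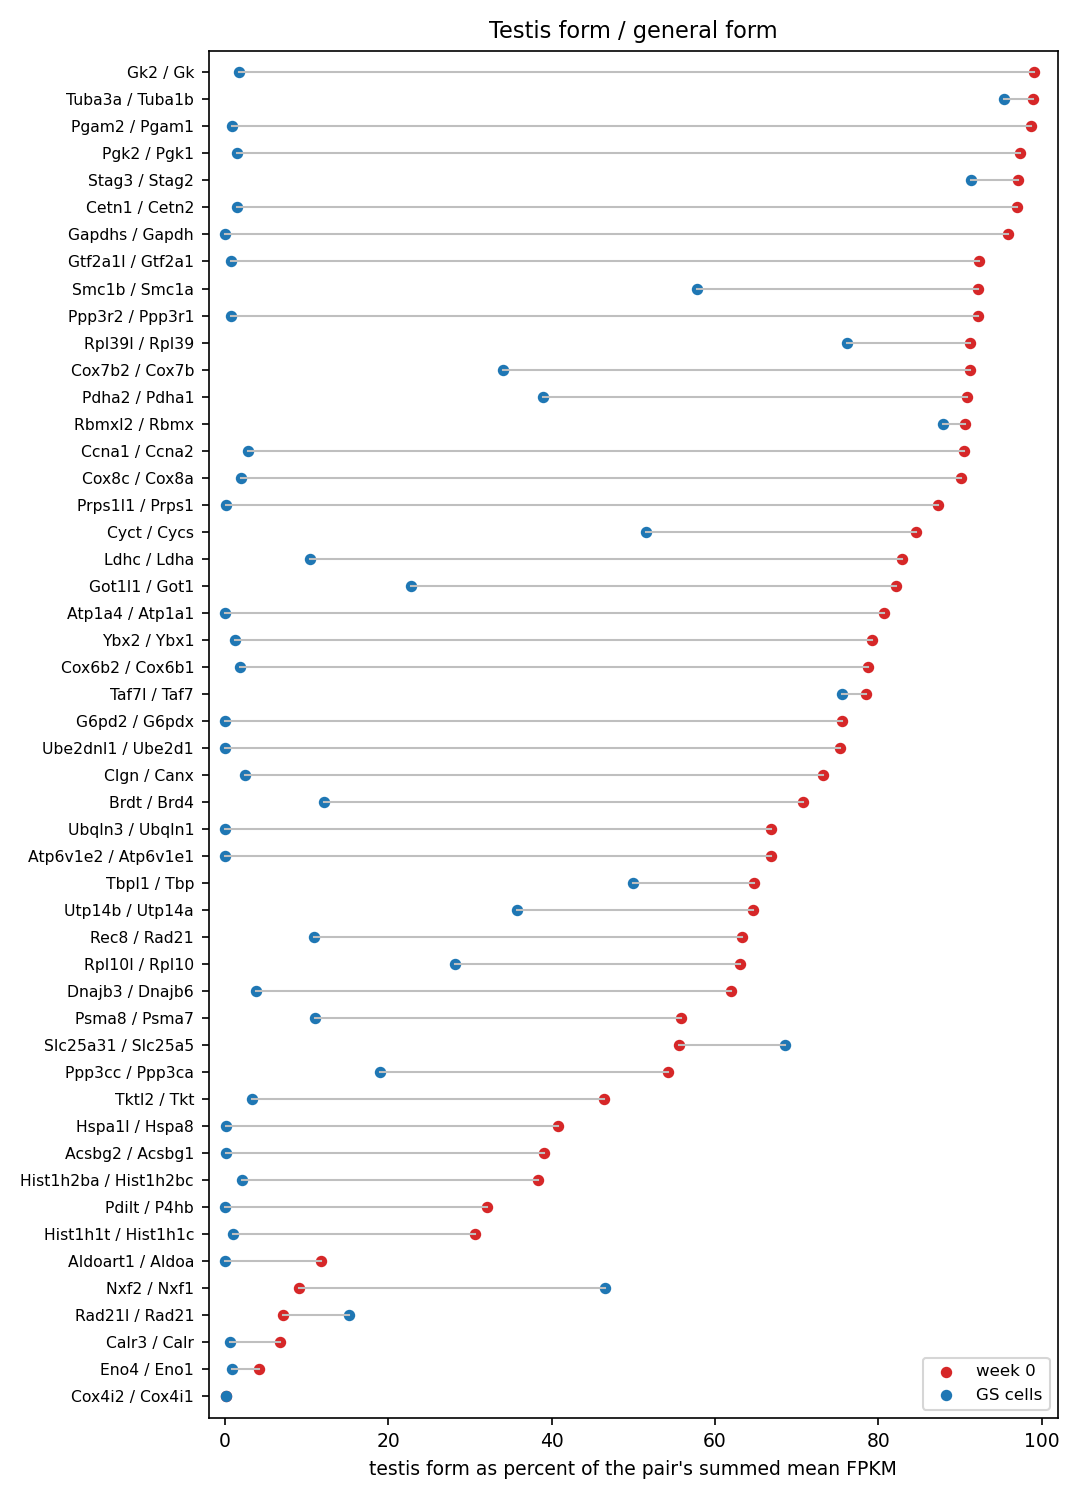
Mean FPKM of the testis form as a percent of the pair's sum at week 0 (red) and in GS cells (blue) for 50 pairs, ordered by the week 0 value. Blue points gather near 0 for most pairs, stay above 50% in 8 of them, and lie to the right of red for Slc25a31, Nxf2 and Rad21l.

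Counts of heat shock genes were near the shares of all genes, 35.4% higher and 47.5% lower. Of 34 members tested 13 were higher and 18 lower, and the median of -0.32 turned to 0.07, 0.17 and 0.23 under the other scalings. Hspb9 and Dnajb8, forms found mainly in testis, were among the falls. Hspb9 went from 1116 and 1121 FPKM to 0.631 and 0.589. Dnajb8 was at 272 and 289.8 FPKM at week 0 and listed at 0 in both GS libraries. Hspe1, the mitochondrial co-chaperonin, rose from 71.3 and 72.1 FPKM to 408 and 397, and Hspa8 from 271 and 318 to 1018 and 1006. Hsp90aa1 was among the most abundant genes of both groups, at 2658 and 2664 FPKM at week 0 and 2677 and 2440.2 in GS cells, and was not called.

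Genes of the piRNA pathway, which silences transposons in germ cells, were also near those shares (35.4% higher, 47.5% lower). Of 29 members tested 12 were higher and 15 lower, and the median of -0.35 turned to 0.19, 0.12 and 0.20 under the other scalings. Piwil1, the PIWI protein of pachytene spermatocytes and spermatids, fell from 239.9 and 239.9 FPKM to 6.52 and 6.44, and Tdrd6, of the chromatoid body, from 468 and 425 to 0.540 and 0.946. Piwil2 and Piwil4, PIWI proteins of earlier germ cells, were higher, Piwil4 at 1.78 and 1.36 FPKM at week 0 and 11.03 and 11.5 in GS cells.

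In the DNA methylation machinery 13 of 23 were higher and 7 lower (median 0.52). Uhrf1, which guides maintenance methylation, was at 100.3 and 101 FPKM at week 0 and 199 and 199.7 in GS cells. Dnmt1, its enzyme, was at 41.5 and 41.1 FPKM at week 0 and 131 and 116 in GS cells. Hells, a remodeller, had the largest rise, from 49.1 and 61.3 FPKM to 266 and 306. Dnmt3b was at 11.5 and 13.4 FPKM at week 0 and 27.4 and 25.8 in GS cells, while Dnmt3l, its cofactor, was lower at 9.95 and 9.89 FPKM at week 0 and 5.19 and 4.56 in GS cells (adjusted p = 0.00404), a call lost under the other scalings. The largest fall of the list was that of Mettl7a1, from 5.63 and 7.69 FPKM to 0.681 and 0.641. It is a methyltransferase-like gene, counted among the 7 lower, whose role in DNA methylation is not established here.

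Polycomb genes divided almost evenly on the deposited scale, 17 higher and 14 lower of 34. Under quantile normalization, a common sum and median centring 21, 20 and 20 were higher and 10, 11 and 8 lower. Scml2, the germ line Polycomb protein on the X chromosome, was at 38.5 and 34.7 FPKM at week 0 and 217 and 257 in GS cells (difference 2.66 ± 0.11 SE, adjusted p = 7.97e-08). Ezh2, the histone H3 methyltransferase, was lower at 111.3 and 98.7 FPKM at week 0 and 38.3 and 42.7 in GS cells (adjusted p = 4.63e-05), while its partners Eed and Suz12 were higher, Eed at 51.3 and 55.5 FPKM at week 0 and 116 and 131 in GS cells. Ring1 fell from 37.9 and 34.7 FPKM to 6.68 and 3.62.

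Imprinted genes were counted by parental class. Of these, 3 of 16 maternally expressed genes were higher and 12 lower (median -0.83), and 16 of 22 paternally expressed genes were higher and 5 lower (median 0.72). Of all genes 35.4% were higher and 47.5% lower. Under quantile normalization, a common sum and median centring 8 maternally expressed genes were lower each time (medians -0.20, -0.38 and -0.28). In the same order 18, 17 and 17 paternally expressed genes were higher (medians 1.48, 1.07 and 1.27). No test of the difference between the classes was run. Asb4 and Gatm led the falls, Asb4 from 24.2 and 20.7 FPKM to 0.314 and 0.351, and Phlda2 was higher, at 2.89 and 2.13 FPKM at week 0 and 31.7 and 22.9 in GS cells. Slc38a4 and Nnat led the rises of the other class, Slc38a4 at 0.622 and 1.37 FPKM at week 0 and 20.6 and 18.2 in GS cells, and Zdbf2 fell from 58.2 and 52.98 FPKM to 9.12 and 11.9. Several of these, such as Dcn and Igf2, are also genes of somatic cells, whose markers differed between the groups, and the part of those cells was not tested.

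Most of the antigen presentation and interferon response genes tested were higher in GS cells. MHC class I and peptide loading genes were higher in 21 of 24, with a median of 1.57. Psmb8, a subunit of the immunoproteasome, was at 2.65 and 1.68 FPKM at week 0 and 52.7 and 38.6 in GS cells. Psmb10, another, was at 23.5 and 22.1 FPKM at week 0 and 269 and 228 in GS cells. B2m, the invariant chain that class I molecules need, was at 54.2 and 56.1 FPKM at week 0 and 103 and 91.7 in GS cells. H2-T23 was called lower at 3.24 and 4.57 FPKM at week 0 and 2.47 and 1.58 in GS cells (adjusted p = 0.0487), a call that 12 of 20 alternatives did not keep, with adjusted p up to 0.623; the difference of -0.70 was -0.90 and -0.50 without week 0 replicate 1 and 2, -0.70 without either week 3 library, -0.49 without GS replicate 2, and 0.38 under quantile normalization. Of interferon response genes 23 of 34 were higher and 3 lower (median 1.27). Ifit1, Ifit3, Ifi44, Oas2, Oas3 and Gbp4 lay below the filter, and Mx2 had no row. Without a filter 22 of 40 were higher and 5 lower (median 0.90). At FPKM 1 or more in all 4 libraries 19 of 27 were higher and 1 lower (median 1.37). Zbp1, a sensor of Z-form nucleic acid, was at 0.901 and 0.682 FPKM at week 0 and 62.5 and 54.2 in GS cells. Gbp2, a guanylate-binding protein, was at 1.59 and 2.55 FPKM at week 0 and 88.0 and 88.5 in GS cells. Irf7, a main inducer of type I interferon, fell from 4.89 and 2.57 FPKM to 0.152 and 0.0374. Ifnar1, a receptor chain on chromosome 16, was at 15.9 and 23.4 FPKM at week 0 and 118 and 145 in GS cells.

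Of immune checkpoint ligands 5 were higher and 8 lower of 16 tested, near the shares of all genes (35.4% and 47.5%), and 5 lay below the filter. Cd274, which encodes PD-L1 (chr19:29367455-29388095), was at 1.89 and 1.83 FPKM at week 0 and 26.6 and 26.6 in GS cells, 14.3-fold (difference 3.27 ± 0.10 SE, adjusted p = 9.16e-09), and averaged 12.4, 17.1 and 18.0 FPKM at weeks 1 to 3. Cd276 (B7-H3) had the largest rise, from 2.37 and 2.91 FPKM to 63.8 and 52.3. Cd200 and Nectin3 had the largest falls, Cd200 from 110.2 and 118 FPKM to 1.60 and 4.29. The list median of -0.31 turned to 0.74, 0.07 and 0.24 under the other scalings. Genes that p53 activates were higher in 15 of 26 and lower in 3, led by Plk3 (2.93 and 2.67 FPKM at week 0 and 30.03 and 29.5 in GS cells) and Pmaip1, while Polk, a repair polymerase, fell from 25.6 and 24.5 FPKM to 3.71 and 6.34.

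Adhesion genes were mixed. Among integrins and tetraspanins 14 of 31 were higher and 12 lower (median -0.11), a median that turned to 0.88, 0.35 and 0.43 under the other scalings and to 0.05 without GS replicate 2. Itga6, a laminin receptor chain used to enrich stem cells, was at 9.67 and 8.61 FPKM at week 0 and 61.2 and 63.1 in GS cells, and Itgb1, its partner, at 51.5 and 58.5 FPKM at week 0 and 163 and 167 in GS cells. Itgae fell from 12.04 and 12.4 FPKM to 0.234 and 0.146. Of junction genes 17 of 33 were higher and 11 lower (median 0.72). Epcam, an epithelial adhesion molecule that spermatogonia carry, was at 19.6 and 21.9 FPKM at week 0 and 145 and 138 in GS cells. F11r, a junctional adhesion molecule, was at 34.6 and 35.1 FPKM at week 0 and 169.9 and 153 in GS cells. Cldn11, of the Sertoli cell barrier, fell from 29.2 and 30.9 FPKM to 0.199 and 0.0318. Intermediate filament genes were higher in 9 of 18, with Nefm, a neurofilament, at 1.29 and 1.09 FPKM at week 0 and 56.6 and 49.3 in GS cells. Krt18, a keratin of simple epithelia, was at 1.33 and 1.28 FPKM at week 0 and 31.3 and 27.4 in GS cells. Lmnb2, a nuclear lamin, was lower, at 93.8 and 92.2 FPKM at week 0 and 10.0 and 8.78 in GS cells.

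Genes of the X chromosome and of chromosome 16 stood apart from the rest, each in another group. The median difference was highest on the mitochondrial genome (1.55), on chromosome Y (0.52, 13 genes) and on chromosomes X (0.32, 616 genes) and 16 (0.30, 469 genes), and lowest on chromosomes 7 (-0.50), 14 (-0.50) and 1 (-0.47). Of chromosome 16 genes 48.4% were called higher and of X genes 48.5%, beside 35.4% of all genes. To see which libraries this came from, the 7754 genes at 5 or more FPKM in all 10 libraries were centred on week 2, a choice made after these values were seen. The median of the 201 X genes, minus that of the other chromosomes, was -0.89 and -0.82 at week 0, 0.20 and 0.11 at week 1 and 0.00 in both GS libraries. The 262 genes of chromosome 16 stood at 0.01 and -0.03 at week 0, at -0.02 to 0.00 in the 4 libraries of weeks 1 and 3, and at 0.50 and 0.53 in GS cells.

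Against week 3, 252 of 262 chromosome 16 genes lay above the median of the other chromosomes, by 0.52 in the median, and in each of 10 windows of 10 Mb the median was 0.37 to 0.59 higher. Against week 0 the same measure was 0.49, with 174 of 262 genes above and window medians between -1.64 (5 genes) and 0.82. RNA alone was measured, and the cause was not tested. Named genes on this chromosome include Etv5, Mcm4, Chaf1b, Dppa4 and Ifnar1 among those that rose, with differences of 2.22, 2.76, 2.51, 3.53 and 2.70, and Prm1, Prm2, Tnp2, Cd200, Nectin3, Cldn5 and Myh11 among those that fell.

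**Figure D5:**
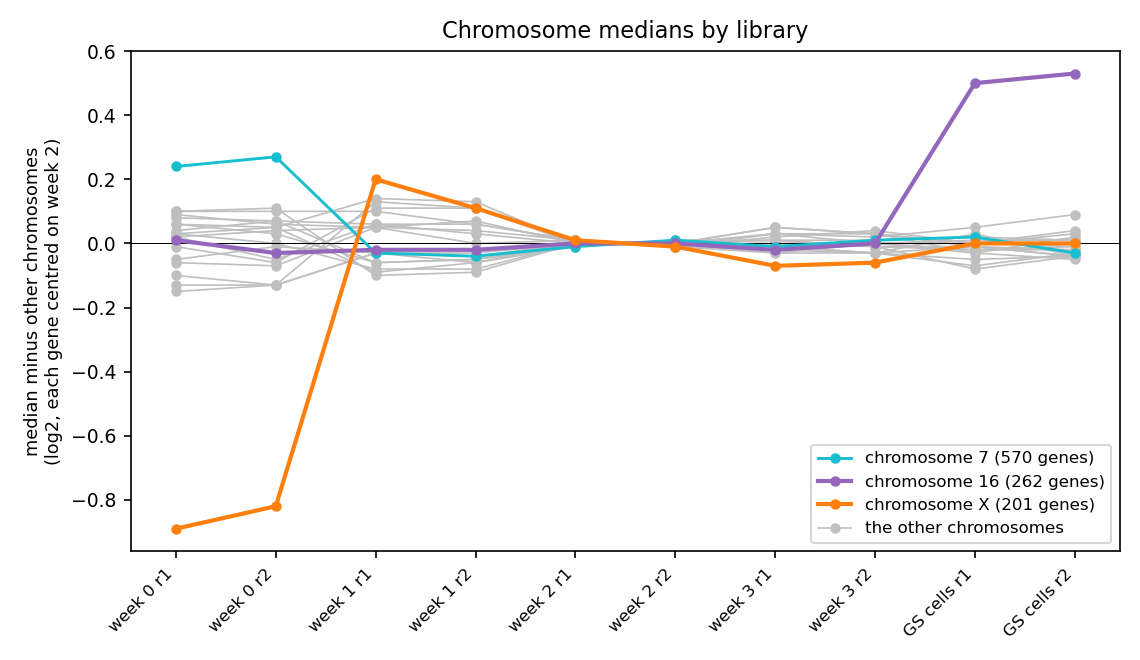
Median of each chromosome's genes minus that of all other chromosomes, in log2(FPKM + 1) after centring each gene on week 2, for each of 10 libraries and 7754 genes at 5 or more FPKM throughout; lines join the libraries for reading only. The X chromosome is low in the 2 week 0 libraries (-0.89 and -0.82), chromosome 7 is 0.24 and 0.27 there, and chromosome 16 is high in the 2 GS libraries (0.50 and 0.53).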

How the data were processed

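RNA was measured in 10 poly(A) RNA libraries by stranded sequencing. The authors deposited 1 table of FPKM values per gene, normalized to library size and transcript length, and, per the submitters' processing notes, the tools and build were mm10, the quantifiers Cufflinks 2.2.1 and Cuffdiff, the aligners HISAT2 2.1.0 and Bowtie2 2.3.4.1, and, for reads, cutadapt 1.16 and bcl2fastq 2.17.1.14. Gene positions came from GENCODE M21, with 21951 of 21969 identifiers matched, and 27 symbols that a spreadsheet had turned into dates were restored. Genes reaching FPKM 1 in 2 or more of the 4 libraries compared were kept, values were taken as log2(FPKM + 1), and GS cells were contrasted with week 0 in limma 3.58.1 (R 4.3.3) with an intensity trend, all 5 groups sharing the estimate of spread. P-values were adjusted by Benjamini-Hochberg over 15010 genes. FPKM are not counts, so no count model was used; low FPKM values were whole multiples of 1 read within 0.15 for 95.68 to 98.93% of values, which gave depths of 10.35 to 21.05 M reads, and an FPKM of 1 for a transcript of 2200 nt is 20.7 to 42.1 reads. The script was tested on simulated data.

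The genes compared, the 41 gene lists (1187 entries, 1103 different genes, 14 entries without a row and 63 below the filter) and the 52 pairs were chosen with earlier results of these data known. Named genes are the 8 with the largest difference in each direction, the 2 leading members of each list and the largest change the other way, all pairs, 5 genes listed at 0 in each group, 5 genes of mean FPKM 50 or more with the smallest difference, and 35 genes set by name. Other members named in the text were chosen after their values were seen. Alternatives were 20: the pseudocount, filters, scalings, the 4 libraries alone, no trend, the replicate block and leaving out each library.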

Additional observations from a re-analysis of the deposited data

How the results depend on the processing

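Of 248 named genes tested, 233 were called, 19 lost a call in at least 1 of 20 alternatives and 15 changed sign under at least 1 scaling. Requiring FPKM 1 or more in all 4 libraries left 4360 genes lower and 4677 higher, and 2881 lower by 2-fold, while 2-fold rises numbered 5390 after quantile normalization and 4970 with median centring, against 7126, 5423 and 3015. Leaving out 1 library gave 4912 to 5377 higher, 6717 to 7177 lower, 2925 to 3050 higher and 5352 to 5463 lower by 2-fold, and 24 to 25 of 41 lists with more members higher than lower. With the replicate block 5316 genes were higher and 7113 lower; of the named genes it changed the calls of Calr and H2-T23 alone, both lost, and since same-numbered libraries deviated from their group means with correlations of -0.053 to 0.069, the numbers do not pair them.

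Under quantile normalization, a common sum and median centring, differences that were negative became positive for Calr (0.24, 0.29, 0.35), Canx (0.44, 0.35, 0.41), Cstf2 (0.48, 0.47, 0.54), Fkbp5 (0.43, 0.47, 0.54), Nxf1 (0.24, 0.08, 0.14), Srsf4 (0.45, 0.47, 0.54), Tex30 (0.54, 0.48, 0.54), Ubqln1 (0.06, 0.04, 0.10), Tkt (0.17, 0.20, 0.27), Cox4i2 (0.71, 0.08, 0.38) and Utp14b (0.67, 0.42, 0.52), and, among the scalings, under quantile normalization alone for H2-T23 (0.38), Rbmx (0.23) and Tspan8 (0.20), while Gk turned under quantile normalization (0.54) and median centring (0.02). List medians turned likewise for piRNA genes (0.19, 0.12, 0.20), fibroblast genes (0.82, 0.37, 0.49), heat shock genes (0.07, 0.17, 0.23), checkpoint ligands (0.74, 0.07, 0.24) and integrins (0.88, 0.35, 0.43). Requiring FPKM 1 in all 4 libraries turned heat shock genes to 0.24, integrins to 0.48 and endothelial genes to 0.02. Leaving out 1 library gave -0.17 to 0.12 for fibroblast genes and -0.20 to 0.05 for integrins.

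The median of chromosome 16 genes minus other chromosomes was 0.59 and became 0.53 with FPKM 1 in all 4 libraries, 0.53 with FPKM 1 in 2 of 10, 0.54 after quantile normalization, 0.63 with a common sum and 0.49 with FPKM 5 in all 10. For the X chromosome 0.61 became 0.81 with FPKM 1 in all 4 libraries, 0.52 with FPKM 1 in 2 of 10, 0.75 after quantile normalization and 0.83 with FPKM 5 in all 10, a filter added after seeing the data. Where 2 libraries form a group and low genes rest on 20.7 to 42.1 reads per FPKM, small differences of low genes may be missed. No limit of detection was computed.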
